A study of Mus musculus with 18 samples.

Results

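The interleukin 1 (IL-1) system is described here through 7 genes of macrophages: the agonists Il1a and Il1b, the receptor antagonist Il1rn, the receptors Il1r1, Il1rap and Il1r2, and Il18bp, which encodes the binding protein of the related cytokine IL-18. The genes were picked by symbol for their known roles, and all 7 were found among the 16474 genes of the deposited table (gene IDs 16175, 16176, 16181, 16177, 16180, 16178 and 16068 in that order). All 7 also had a signal of at least 10 in at least 3 libraries and were therefore tested. The study compared wild type (WT) macrophages with p110g-/- macrophages, the label for cells without p110gamma, which the gene Pik3cg encodes and which is the catalytic chain of phosphoinositide 3-kinase gamma. Every group came from C57BL/6 mice aged 8 weeks. Their bone marrow was first cultured over 6 days with the macrophage growth factor M-CSF at 50 ng/ml, and from then on with M-CSF at 20 ng/ml. Some cells received nothing further for 24 h, others received interferon gamma (IFNg) together with bacterial lipopolysaccharide (LPS, 100 ng/ml) for 24 h, and others received interleukin 4 (IL-4, 20 ng/ml) for 48 h. There were 6 groups, each with 3 RNA libraries numbered 1 to 3, of 40.1 to 69.6 M reads. Because IL-4 cells were collected at 48 h and M-CSF cells at 24 h, the stimulus and the time cannot be told apart in that comparison. Whether libraries that share a group also share a mouse or a culture is not given in the labels, so every p-value measures the spread between libraries.

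IL-1 alpha and IL-1 beta act on the same receptor, IL1R1, which signals only once the accessory chain encoded by Il1rap has joined it. The antagonist IL1RN occupies IL1R1 without signalling, and IL1R2 binds the agonists but has no signalling domain and acts as a decoy. Macrophages make the agonists after contact with bacterial products, and IL-1 beta is released as an active cytokine after cleavage by caspase-1. IL18BP binds IL-18, an IL-1 family cytokine cleaved by the same enzyme, and keeps it from its receptor.

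All values are the authors' normalised signal, which is the gene's reads divided by 1 factor per library. A group value is a mean ± SD over 3 libraries, and differences are log2 fold changes of signal + 1 from a limma fit of all 18 libraries, with p-values adjusted over 15627 tested genes. A difference was called at an adjusted p under 0.05. Of 9 macrophage markers measured, such as Csf1r and Lyz2, the summed signal was between 472595.3 and 1066317.9 in each library and no marker was at 0. In IL-4 and M-CSF libraries the summed signal of 11 neutrophil markers ranged from 5501.2 to 33562.4. RNA of bulk cultures cannot tell fewer cells of a type from less RNA per cell.

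The targeted gene went against the label of 1 library. Pik3cg signal was 3691.4 in the library labelled p110g-/- IFNg/LPS number 1, above the 3559.5, 2309.0 and 2604.2 of the WT IFNg/LPS libraries, whereas the other p110g-/- IFNg/LPS libraries had 1410.5 and 2036.7. Pik3cg was lower in p110g-/- than in WT libraries under M-CSF (log2 fold change -1.41, adjusted p = 0.0027) and under IL-4 (-1.63, adjusted p = 0.00063), but was not called under IFNg/LPS (-0.34, adjusted p = 0.37). It was called there too without the library labelled number 1 (-0.71, adjusted p = 0.007). H60a, a gene chosen after its values were seen because its genotype difference is large under every stimulus, had 2545.9 in that library against 132.7 to 144.7 in the WT IFNg/LPS libraries. Plekhg1, also chosen after its values were seen, had 61.6 there, against 1697.8 to 1929.9 in the WT and 71.1 and 76.9 in the other p110g-/- IFNg/LPS libraries. Genes chosen with the values of that library in view are no independent check of its label. The results under IFNg/LPS are given below with and without that library.

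The stretches of 250 bases before the start sites of the members on which the results turn are shown first, because these genes responded to the stimuli by very different amounts. They were taken from RefSeq (GRCm38.p6), which held windows of 250 bases before and 50 bases after 10 start sites for the 7 members. Each is printed from its 5′ end to the base before the start site, on the strand of the gene. Capitals mark matches to the motifs searched on both strands. Il1a and Il1b lie side by side on chromosome 2, with windows at chr2:129309973-129310222 and chr2:129371140-129371389 on the minus strand. Il1rn lies on the plus strand of the same chromosome, with start sites after chr2:24336610-24336859 (window 1) and after chr2:24345041-24345290 (window 2). Another Il1rn window overlaps window 2 and is not shown. Il1r1, next to Il1r2 on chromosome 1, has windows at chr1:40224830-40225079 (window 1) and chr1:40266336-40266585 (window 2) on the plus strand.
Il1a: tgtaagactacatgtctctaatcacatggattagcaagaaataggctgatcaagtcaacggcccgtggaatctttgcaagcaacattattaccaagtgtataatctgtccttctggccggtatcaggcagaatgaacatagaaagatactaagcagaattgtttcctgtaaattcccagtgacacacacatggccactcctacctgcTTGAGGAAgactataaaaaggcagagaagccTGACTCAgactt
Il1b: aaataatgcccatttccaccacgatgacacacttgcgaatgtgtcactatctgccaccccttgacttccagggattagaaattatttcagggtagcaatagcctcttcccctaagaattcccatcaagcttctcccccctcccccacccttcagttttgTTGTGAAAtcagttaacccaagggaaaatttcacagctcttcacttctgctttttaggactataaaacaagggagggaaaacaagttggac
Il1rn window 1: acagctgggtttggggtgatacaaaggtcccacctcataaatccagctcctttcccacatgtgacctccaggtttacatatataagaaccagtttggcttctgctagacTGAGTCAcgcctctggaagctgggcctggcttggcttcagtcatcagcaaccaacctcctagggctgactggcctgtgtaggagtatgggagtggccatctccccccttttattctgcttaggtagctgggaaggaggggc
Il1rn window 2: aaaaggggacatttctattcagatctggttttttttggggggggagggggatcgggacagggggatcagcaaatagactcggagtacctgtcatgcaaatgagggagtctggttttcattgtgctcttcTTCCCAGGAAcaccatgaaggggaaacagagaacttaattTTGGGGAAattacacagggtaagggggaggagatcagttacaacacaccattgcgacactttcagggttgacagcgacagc
Il1r1 window 1: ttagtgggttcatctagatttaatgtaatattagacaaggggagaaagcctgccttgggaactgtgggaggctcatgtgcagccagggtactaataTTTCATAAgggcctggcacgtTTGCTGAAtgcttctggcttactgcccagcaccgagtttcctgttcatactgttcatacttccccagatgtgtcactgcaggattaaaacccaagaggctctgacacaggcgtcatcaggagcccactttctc
Il1r1 window 2: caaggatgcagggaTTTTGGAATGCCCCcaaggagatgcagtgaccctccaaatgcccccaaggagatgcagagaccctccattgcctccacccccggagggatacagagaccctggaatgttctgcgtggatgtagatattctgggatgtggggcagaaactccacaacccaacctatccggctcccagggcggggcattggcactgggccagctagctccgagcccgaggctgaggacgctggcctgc

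The motifs were those of factors known to act in stimulated macrophages, and shares of windows with a match are over 32817 RefSeq windows of 300 bases. The Il1a stretch held TTGAGGAA, which matches the C/EBP motif TTNNGNAA (found in 40.7% of all windows) and overlaps the PU.1 core GAGGAA (28.3%). Further on it held TGACTCA, a match to the AP-1 motif TGANTCA (7.81%), 12 bases before the start. In Il1b the only match was to C/EBP, TTGTGAAA, 91 bases before the start. Window 1 of Il1rn held the AP-1 match TGAGTCA, and window 2 held TTCCCAGGAA, a match to the STAT6-type motif (6.94%), beside the C/EBP match TTGGGGAA. Another 2 overlapping C/EBP matches of Il1rn window 2 began 16 and 17 bases after the start, beyond the printed stretch. Window 1 of Il1r1 held 2 C/EBP matches, and window 2 held a match to the kappaB consensus of NF-kappaB (4.5% of all windows) that overlaps a C/EBP match. Of the windows not printed, Il1r2 held TTCAAGGAA, a match to the STAT motif TTCNNNGAA (8.29%), Il1rap held GAAAAAGAAA, a match to the interferon response core (3.43%), and Il18bp held the C/EBP match TTGCGGAA. A match is a description of the letters and not of a bound factor.

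IFNg/LPS raised 6 of the 7 members and lowered 1 in WT macrophages, and the count was the same in p110g-/- macrophages. Over all tested genes 73.8% were called in WT libraries (36.3% raised, 37.5% lowered) and 73% in p110g-/- libraries (36.2% raised, 36.8% lowered), so most genes of these cells passed the same test. All 7 members had groups that did not overlap in each genotype, as had 76.5% of all tested genes in WT and 75.2% in p110g-/- libraries. The median log2 fold change of the members was 4.66 in both genotypes, against -0.01 over all tested genes in each genotype. All 7 calls in p110g-/- libraries were also made without the library labelled number 1.

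**Figure D1:**
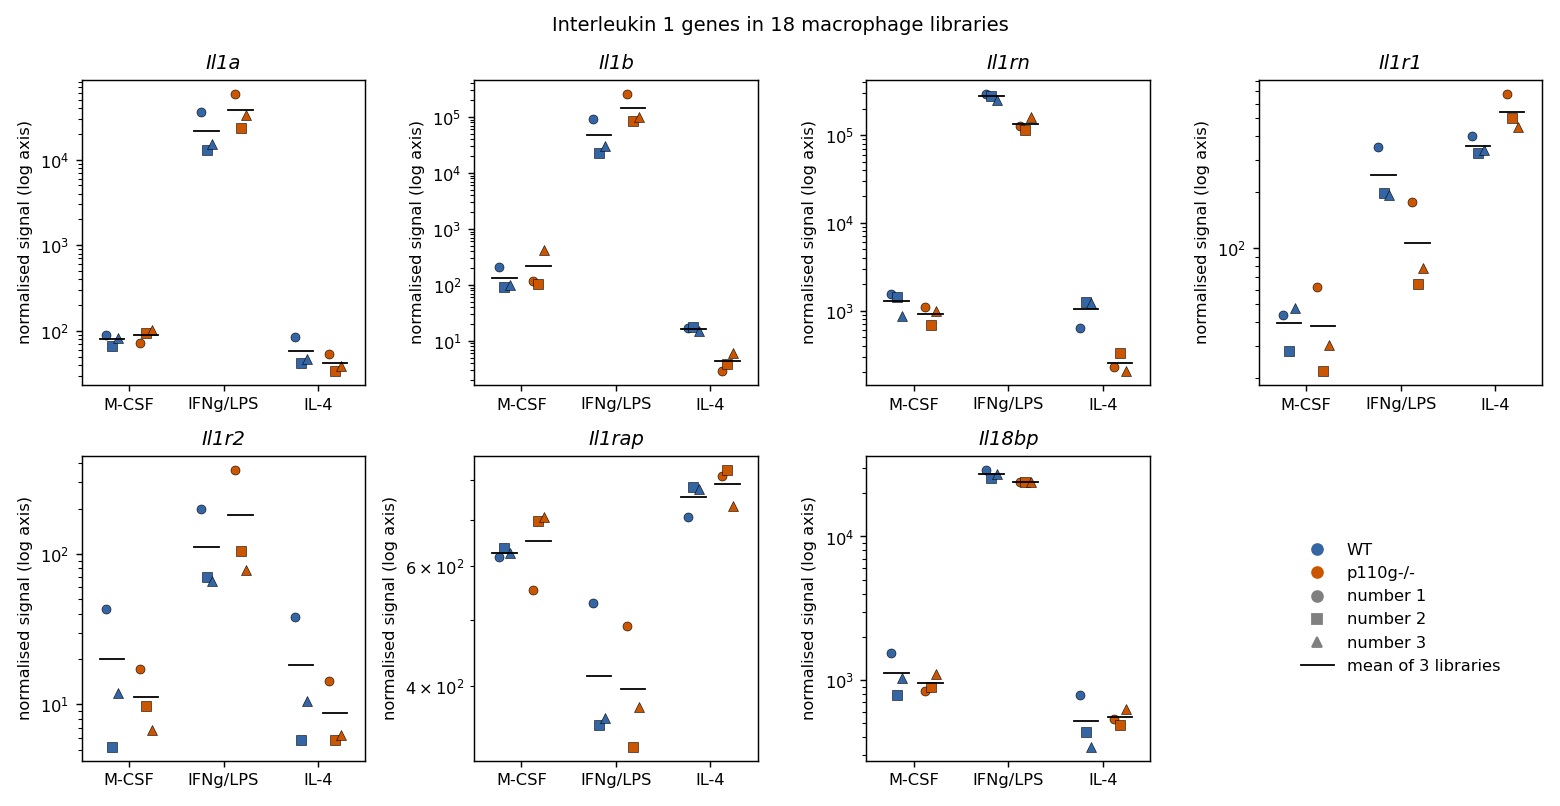
Normalised signal (log axis) of each gene in all 18 libraries by stimulus, with WT in blue, p110g-/- in orange, the symbol giving the library number and the bar the mean of 3 libraries. The agonists, Il1rn, Il1r2 and Il18bp are highest under IFNg/LPS, Il1r1 is highest under IL-4, and Il1rap varies least.

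Among the agonists, Il1a had a signal of 89.9, 66.4 and 83.4 in the WT M-CSF libraries and of 36306.1, 13054.0 and 15235.2 in the WT IFNg/LPS libraries, in the order of the numbers. In p110g-/- macrophages it was at 72.4, 94.0 and 101.7 under M-CSF and at 58900.0, 23528.9 and 32853.6 under IFNg/LPS. Every IFNg/LPS library stood far above every M-CSF library, and number 1 was the highest under IFNg/LPS in both genotypes. The log2 fold change was 7.91 (adjusted p = 4.5e-11, SE 0.38) in WT and 8.64 (adjusted p = 1.7e-11, SE 0.38) in p110g-/- libraries.

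Il1b, the agonist that is secreted after cleavage, had 207.4, 90.9 and 99.6 in WT M-CSF and 91812.0, 22986.7 and 30911.1 in WT IFNg/LPS libraries. In p110g-/- libraries it rose from 118.4, 104.9 and 419.0 to 260392.1, 85032.1 and 98980.9. As with Il1a, number 1 stood highest under IFNg/LPS in both genotypes, at 3.41 times the mean of numbers 2 and 3 in WT and 2.83 times in p110g-/- libraries. The log2 fold changes were 8.34 (adjusted p = 2.7e-09, SE 0.57) in WT and 9.54 (adjusted p = 5.6e-10, SE 0.57) in p110g-/- libraries, and the latter was 9.04 without the library labelled number 1.

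Il1rn, the antagonist, had the highest mean signal per kb of exon among the members in M-CSF, at 478 ± 134 in WT and 340 ± 76.4 in p110g-/- libraries (SD, n = 3). Its values overlapped those of Il18bp, at 370 ± 127 and 313 ± 46.4 per kb, so these 2 did not differ beyond their spread. Its signal in WT was 1557.1, 1442.5 and 879.0 under M-CSF and 295700.2, 281188.1 and 253357.7 under IFNg/LPS. In p110g-/- libraries it was 1089.7, 689.6 and 980.5 under M-CSF and 125900.4, 114872.0 and 161648.7 under IFNg/LPS. Both genotypes rose without overlap, with log2 fold changes of 7.78 (adjusted p = 1.6e-12, SE 0.27) in WT and 7.20 (adjusted p = 3.4e-12, SE 0.27) in p110g-/- libraries. The table gives 1 value per gene, so the secreted and intracellular forms of the antagonist are not separated.

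The receptors responded less than the ligands. Il1r1, the signalling receptor, had 43.8, 28.0 and 47.6 under M-CSF and 352.8, 198.9 and 194.3 under IFNg/LPS in WT libraries. In p110g-/- libraries it had 62.1, 21.9 and 30.4 under M-CSF and 177.9, 64.5 and 78.9 under IFNg/LPS. The groups did not overlap in either genotype, although in p110g-/- macrophages the lowest IFNg/LPS library was close to the highest M-CSF library. Log2 fold changes were 2.59 (adjusted p = 1.9e-05, SE 0.39) in WT and 1.46 (adjusted p = 0.0033, SE 0.39) in p110g-/- libraries, and the latter was 1.02 (adjusted p = 0.023) without the library labelled number 1.

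Il1rap, the accessory chain, was the only member that IFNg/LPS lowered. WT libraries went from 616.9, 636.0 and 625.7 under M-CSF to 530.0, 351.1 and 360.1, and p110g-/- libraries from 552.9, 696.1 and 706.9 to 489.6, 326.5 and 373.2. Its log2 fold changes were -0.62 (adjusted p = 0.0021, SE 0.16) and -0.73 (adjusted p = 0.00062, SE 0.16), and all IFNg/LPS libraries were below all M-CSF libraries of their genotype.

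Il1r2, the decoy receptor, was scarce in M-CSF, with 43.0, 5.2 and 11.9 in WT and 17.2, 9.8 and 6.7 in p110g-/- libraries. Under IFNg/LPS it had 199.3, 70.0 and 66.3 in WT and 362.9, 104.4 and 78.0 in p110g-/- libraries. The log2 fold changes were 2.70 (adjusted p = 0.0054, SE 0.78) and 3.66 (adjusted p = 0.00054, SE 0.78), and the latter was 2.99 (adjusted p = 0.004) without the library labelled number 1. Number 1 had the highest Il1r2 signal in all 6 groups, at 2.08 to 5.03 times the mean of numbers 2 and 3. The neutrophil markers, of a cell type known to make this receptor, also stood higher in number 1 under M-CSF and IL-4, where their summed signal was 3.61 and 4.63 times the mean of numbers 2 and 3 in WT and 2.37 and 1.85 times in p110g-/- libraries. Under IFNg/LPS, where Il1r2 was highest, the summed neutrophil signal was lower, at 1283.4 to 3891.2, with number 1 at 1.11 and 1.15 times the mean of the others. Elane was at 0 in all 6 libraries, but Ly6g was at 5.7 to 18.6, against 0 to 3.8 in M-CSF. Mmp8 was highest in number 1, with 1110.2, 475.3 and 454.8 in WT and 508.2, 95.9 and 98.4 in p110g-/- libraries. Camp, Cxcr2 and Ly6g were also highest in number 1 in both genotypes. S100a9, Ngp and Ltf went the other way and were lowest in number 1 in both. S100a9 had 423.7, 902.9 and 1312.4 in WT and 460.6, 510.7 and 954.0 in p110g-/- libraries. Ngp had 14.8, 74.7 and 203.7 in WT and 9.3, 54.1 and 81.9 in p110g-/- libraries. The remaining markers had neither order in both genotypes. Over the 6 groups, number 1 had 1.48 to 3.42 times the mean of numbers 2 and 3 in summed B cell markers. For fibroblast markers it had 1.03 to 5.65 times that mean. Fibroblast markers were still higher in number 3 than in number 1 in p110g-/- IFNg/LPS (584.7 against 479.1) and p110g-/- IL-4 (1415.7 against 1256.9). T and NK cell markers were lower in number 1 than that mean in these same groups, at 0.868 and 0.787 times. The part of neutrophil RNA in the Il1r2 values was not tested.

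**Figure D2:**
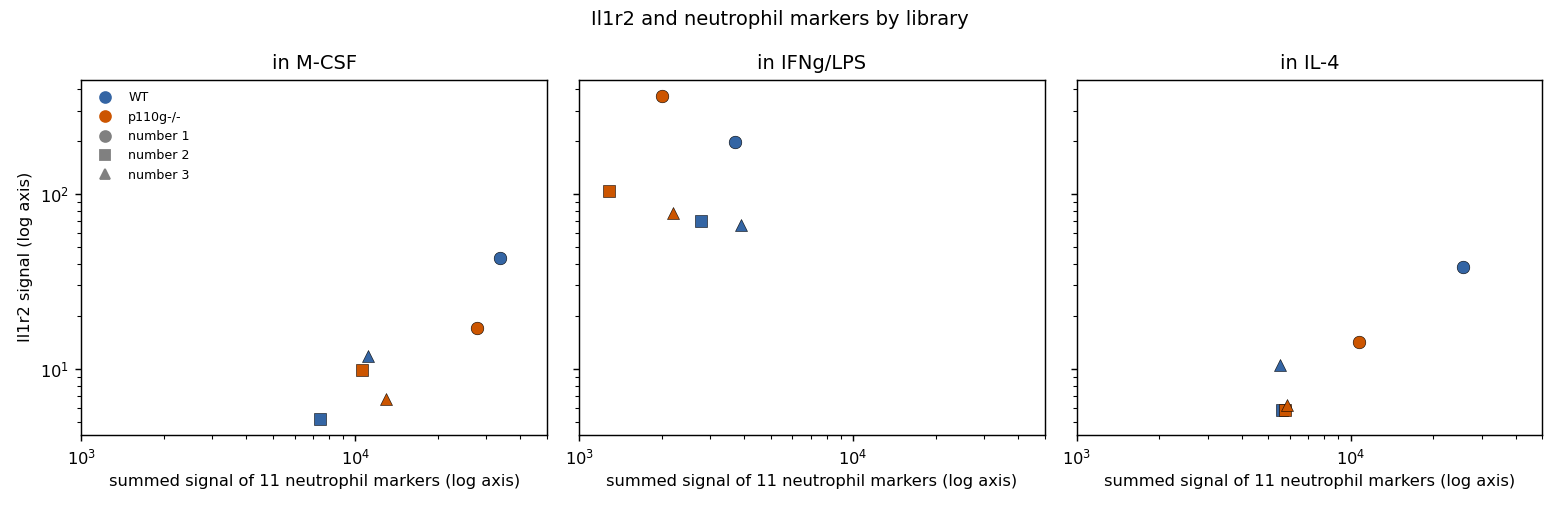
Signal of Il1r2 against the summed signal of 11 neutrophil markers in each library (both axes log), by stimulus, with genotype as colour and library number as symbol. Number 1 is highest in both measures under M-CSF and IL-4, while under IFNg/LPS the marker sum is at most 3891.2 and Il1r2 lies between 66.3 and 362.9.

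Il18bp, the IL-18 binding protein, had 1541.8, 785.4 and 1033.8 in WT M-CSF and 29147.3, 25519.8 and 27329.3 in WT IFNg/LPS libraries. In p110g-/- libraries it had 841.4, 895.0 and 1106.9 under M-CSF and 23923.3, 23920.9 and 23808.5 under IFNg/LPS. The p110g-/- IFNg/LPS values were nearly equal, and both genotypes had a log2 fold change of 4.66 (adjusted p = 1.7e-10, SE 0.25 in each).

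Fewer members were called under IL-4 than under IFNg/LPS. In WT macrophages 1 of 7 rose and 2 fell, and in p110g-/- macrophages 1 rose and 4 fell, against 43.9% of all tested genes called in each genotype (22.9% raised and 21.1% lowered in WT, 22.7% and 21.2% in p110g-/- libraries). Il1r1 was the member that rose, to 404.0, 326.8 and 339.6 in WT and to 678.7, 501.9 and 452.3 in p110g-/- libraries. All 6 of these values were above every M-CSF value, and the log2 fold changes were 3.16 (adjusted p = 1.3e-05, SE 0.39) in WT and 3.91 (adjusted p = 1.4e-06, SE 0.39) in p110g-/- libraries.

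Il1b fell under IL-4 to 16.7, 17.4 and 15.2 in WT libraries and to 2.9, 3.9 and 6.2 in p110g-/- libraries. Those last values rest on 4 to 8 reads each. The log2 fold changes were -2.84 (adjusted p = 0.00095, SE 0.57) in WT and -5.08 (adjusted p = 4.6e-06, SE 0.57) in p110g-/- libraries. Il1a was at 85.4, 41.5 and 46.8 in WT and at 53.8, 33.9 and 38.6 in p110g-/- libraries. It was called as lower in p110g-/- libraries (-1.08, adjusted p = 0.03, SE 0.38) and not in WT (-0.52, adjusted p = 0.29). The p110g-/- call was not made with edgeR on recovered reads (adjusted p = 0.087). With numbers 2 and 3 of all groups alone, the WT fall was called as well (adjusted p = 0.0021). The difference between the genotypes in this response of Il1a was not called (-0.56, adjusted p = 0.94).

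Il1rn under IL-4 had 634.3, 1258.3 and 1209.9 in WT libraries, which overlapped the M-CSF values (log2 fold change -0.34, adjusted p = 0.33). In p110g-/- libraries it fell to 227.4, 329.5 and 205.3, below every M-CSF library (-1.86, adjusted p = 5.8e-05, SE 0.27). Il18bp fell to 783.8, 431.3 and 342.0 in WT (-1.14, adjusted p = 0.0018, SE 0.25) and to 535.9, 487.4 and 629.8 in p110g-/- libraries (-0.78, adjusted p = 0.02, SE 0.25). The p110g-/- call of Il18bp was lost without p110g-/- M-CSF number 3 (adjusted p = 0.078) or p110g-/- IL-4 number 2 (adjusted p = 0.071). That of Il1a was lost without numbers 2 or 3 of either p110g-/- group (adjusted p = 0.075 to 0.1).

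Il1r2 under IL-4 had 38.1, 5.8 and 10.5 in WT and 14.3, 5.8 and 6.2 in p110g-/- libraries, and Il1rap had 706.7, 780.5 and 776.5 in WT and 810.7, 827.5 and 731.7 in p110g-/- libraries. Neither was called in either genotype. Il1rap lay above all M-CSF values in both genotypes by a small amount (log2 fold changes 0.27 and 0.28, adjusted p = 0.18 and 0.16), and 57.4% and 58% of all tested genes had groups that did not overlap. With the libraries of the compared groups alone, the WT difference of Il1rap was called (adjusted p = 0.016).

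**Figure D3:**
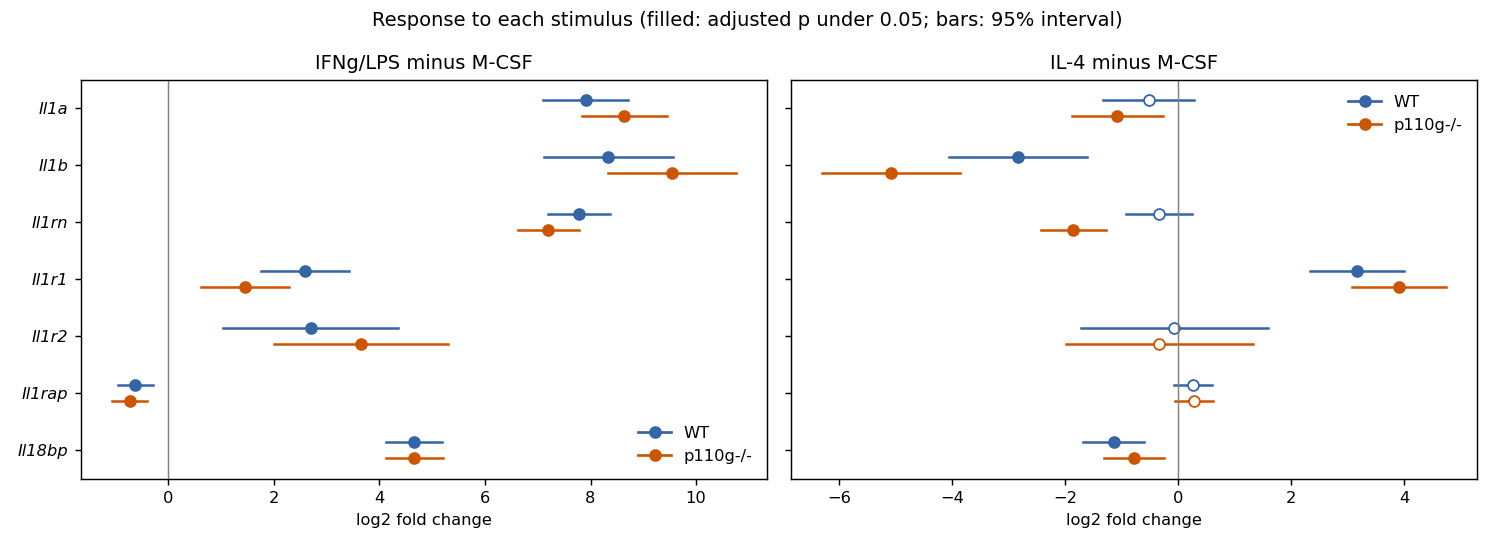
Log2 fold change of signal + 1 against M-CSF (x axis) for each member under IFNg/LPS and under IL-4, in WT (blue) and p110g-/- (orange), with 95% intervals as bars and filled points where the adjusted p is under 0.05. Under IFNg/LPS all points but that of Il1rap lie above 0, and under IL-4 only Il1r1 is called above 0.

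The comparison of genotypes asks what differed between p110g-/- and WT macrophages under each stimulus. It cannot tell loss of p110gamma from any other difference between the mice of the genotypes, which was not tested. In M-CSF none of the 7 members was called, against 2.34% of all tested genes. That count of 0 was the same with limma, edgeR and DESeq2, and no member had an unadjusted p under 0.05 with any of them. All 7 pairs of groups overlapped, whereas 21.6% of all tested genes had groups that did not, and the widest difference was that of Il1b (log2 fold change 0.49, 95% interval -0.73 to 1.71), whose value in p110g-/- M-CSF number 3, 419.0, stood apart from 118.4 and 104.9.

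Under IFNg/LPS 2 of the 7 members, Il1rn and Il1r1, were lower in p110g-/- macrophages and none was called higher, where 14.7% of all tested genes were called and 7.79% were lower. The median over the members was -0.06, against 0.00 over all tested genes. Il1rn was at 134140 ± 24453 (SD, n = 3) in p110g-/- against 276749 ± 21518 in WT libraries, 2.06 times lower, and the values did not overlap. Its log2 fold change was -1.06 (adjusted p = 0.016, SE 0.27), and -1.02 (adjusted p = 0.038) without the library labelled p110g-/- IFNg/LPS number 1. Without p110g-/- IFNg/LPS number 2 it was -0.95 (adjusted p = 0.072), and with numbers 2 and 3 of all groups alone -0.97 (adjusted p = 0.079).

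Il1r1 was at 107 ± 61.7 in p110g-/- against 249 ± 90.2 in WT libraries, with all 3 p110g-/- values below the WT values. The log2 fold change was -1.29 (adjusted p = 0.036, SE 0.39), and -1.73 (adjusted p = 0.0057) without the library labelled p110g-/- number 1, which had the highest p110g-/- value. The call was lost when any single WT library or p110g-/- number 2 or 3 was left out (adjusted p = 0.051 to 0.16), and with the 2 compared groups alone (adjusted p = 0.13). With the library number as a block it was called at adjusted p = 0.0021.

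The agonists were higher in p110g-/- than in WT libraries under IFNg/LPS within each number. Neither passed the main test, which paired no libraries, after adjustment over all genes. Il1b was 3.05 times higher by its means (148135 ± 97467 against 48570 ± 37658), with a log2 fold change of 1.69 (95% interval 0.47 to 2.91, adjusted p = 0.06), and WT number 1 overlapped the p110g-/- values. Il1a was 1.78 times higher (38428 ± 18332 against 21532 ± 12841), with a log2 fold change of 0.89 (95% interval 0.08 to 1.69, adjusted p = 0.13). Same-numbered libraries deviated together in these 2 groups, and with the number as a block Il1b (adjusted p = 0.042) and Il1a (adjusted p = 0.039) were both called higher, so that 4 members were called. Without the library labelled p110g-/- number 1 the log2 fold changes were 1.19 for Il1b (adjusted p = 0.19) and 0.53 for Il1a (adjusted p = 0.39). Without WT number 1 they were 2.29 (adjusted p = 0.012) and 1.34 (adjusted p = 0.016). With numbers 2 and 3 of all groups alone, Il1a was called higher (adjusted p = 0.00093) and Il1b was not.

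The summed signal of 8 dendritic cell markers was also higher in p110g-/- IFNg/LPS libraries, at 7990.7 to 20789.0 against 1658.2 to 5016.5 in WT. Most of it came from Ccr7, a chemokine receptor that activated myeloid cells also express, with 3925.6, 1032.7 and 979.1 in WT and 19983.0, 9112.0 and 7189.7 in p110g-/- libraries. Cd209a was at 0 in all 6 libraries, and Flt3, a defining marker, was between 6.3 and 32.6 with overlap between the genotypes. Xcr1 (560.6 to 947.8 in WT, 646.4 to 667.6 in p110g-/- libraries) and Clec9a (53.1 to 99.0 and 18.6 to 81.6) overlapped too. So did Siglech (1.6 to 13.1 and 5.8 to 9.5) and Zbtb46 (11.1 to 29.5 and 26.6 to 55.8). Itgae was lower in p110g-/- libraries (26.1 to 33.2 and 21.8 to 24.4). The part of dendritic cells in the agonist values was not tested.

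Il18bp was lower in all p110g-/- than in all WT IFNg/LPS libraries, 23884 ± 65.6 against 27332 ± 1814, but the difference was small (log2 fold change -0.19, adjusted p = 0.66) and groups did not overlap for 28.2% of all tested genes. Il1rap did not pass the test (-0.06, 95% interval -0.39 to 0.28). Nor did Il1r2 (0.55, 95% interval -1.10 to 2.21), whose direction turned to -0.11 without the library labelled p110g-/- number 1.

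Under IL-4 1 member, Il1rn, was called, lower in p110g-/- macrophages, where 3.33% of all tested genes were called and 1.99% were lower. Its signal was 254 ± 66.3 in p110g-/- against 1034 ± 347 in WT libraries, 4.07 times lower. The highest p110g-/- value, 329.5, lay below the lowest WT value, 634.3. The log2 fold change was -1.99 (adjusted p = 0.00044, SE 0.27), and the call was made under all 14 alternatives (adjusted p at most 0.016).

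Il1b under IL-4 was lower in p110g-/- libraries without overlap (4.33 ± 1.69 against 16.4 ± 1.12), with a log2 fold change of -1.75 (adjusted p = 0.12, SE 0.57). Of 14 alternatives it was called only with the compared groups alone (adjusted p = 0.036). Over the alternatives the adjusted p reached 0.57 and the log2 fold change ranged from -1.99 to -1.21. The p110g-/- values rest on 4 to 8 reads each. Il1r1 was higher in p110g-/- libraries without overlap (544 ± 119 against 357 ± 41.4) and was not called (0.59, 95% interval -0.24 to 1.42, adjusted p = 0.55). Groups did not overlap for 22.6% of all tested genes in this comparison. The other 4 members overlapped, with log2 fold changes from -0.68 for Il1r2 to 0.17 for Il18bp.

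**Figure D4:**
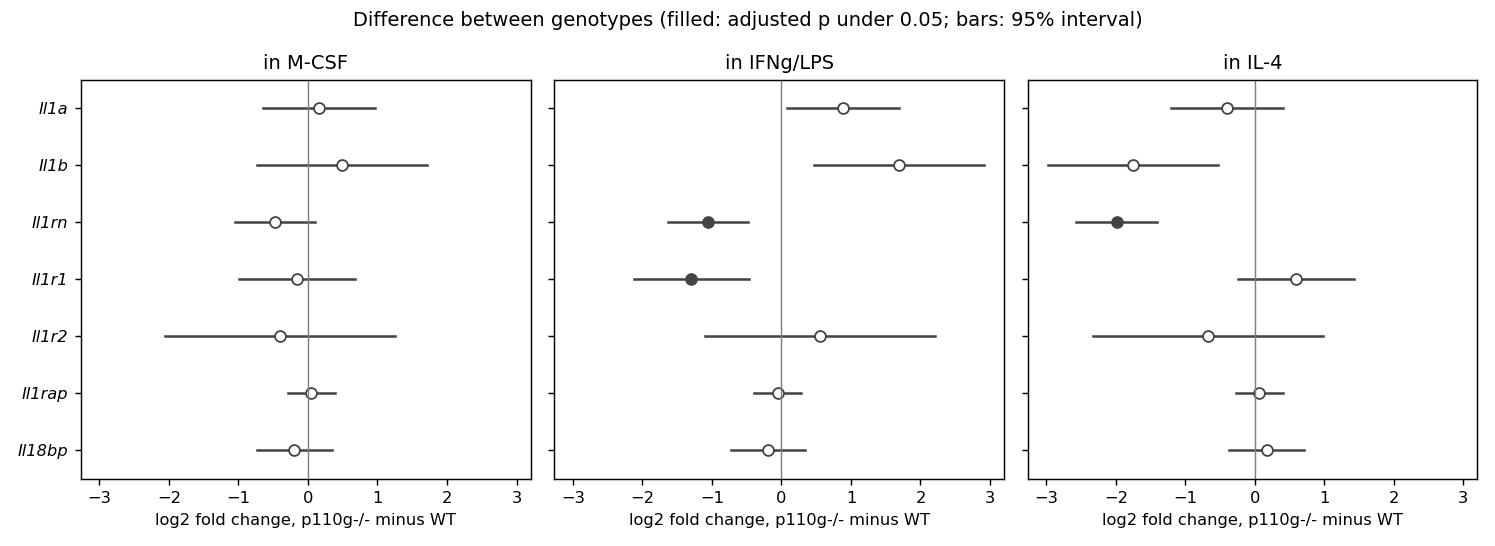
Log2 fold change of signal + 1 in p110g-/- against WT libraries (x axis, the same in each panel) for each member in M-CSF, IFNg/LPS and IL-4, with 95% intervals as bars and filled points where the adjusted p is under 0.05. Il1rn is called below 0 under IFNg/LPS and IL-4 and Il1r1 under IFNg/LPS, and no member is called in M-CSF.

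Whether the genotype effect under a stimulus differed from that in M-CSF was tested as an interaction, and no member passed. Under IFNg/LPS 2.44% of all tested genes were called, and the largest member values were 1.20 for Il1b (adjusted p = 0.49) and -1.14 for Il1r1 (adjusted p = 0.31). These were 0.70 (adjusted p = 0.69) and -1.57 (adjusted p = 0.097) without the library labelled p110g-/- IFNg/LPS number 1. Under IL-4 limma and edgeR called no gene at all (0% of those tested), with 1156 and 1178 genes at an unadjusted p under 0.05, and DESeq2 called 64. Il1rn had an interaction of -1.51 (95% interval -2.33 to -0.69, unadjusted p = 0.0013, adjusted p = 0.3 with limma) and was called by DESeq2 (-1.54, adjusted p = 0.02). Il1b had -2.24 (unadjusted p = 0.014, adjusted p = 0.53 with limma).

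Ratios within a library set the members against each other and do not depend on the factor of the library. They are ratios of signal, not of molecules, and are given without a test. The share of other gene pairs whose ratios do not overlap was not computed. For single genes under IFNg/LPS that share between genotypes was 28.2%. The ratios reuse the values of the members, with Il1rn and Il1r1 called lower above, and are not separate results. The signal of the antagonist Il1rn was 3.22, 12.2 and 8.20 times that of Il1b in WT IFNg/LPS libraries and 0.484, 1.35 and 1.63 times in p110g-/- IFNg/LPS libraries. The groups did not overlap, and in the library labelled p110g-/- number 1 Il1b exceeded Il1rn. Under IL-4, where both genes were lower in p110g-/- libraries, the ratio was 38.0 to 79.6 in WT and 33.1 to 84.5 in p110g-/- libraries, and in M-CSF 7.51 to 15.9 and 2.34 to 9.20.

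Il1b over Il1a was 1.76 to 2.53 in WT and 3.01 to 4.42 in p110g-/- IFNg/LPS libraries, again without overlap. It was 0.196 to 0.419 in WT and 0.0539 to 0.161 in p110g-/- IL-4 libraries, so that Il1a exceeded Il1b in all 6 libraries under IL-4. The decoy Il1r2 over the signalling receptor Il1r1 was 0.341 to 0.565 in WT IFNg/LPS and 0.989 to 2.04 in p110g-/- IFNg/LPS libraries. Under IL-4 that ratio was at most 0.0943. Il1r1 over its partner Il1rap was 0.540 to 0.666 in WT and 0.198 to 0.363 in p110g-/- IFNg/LPS libraries, and 0.419 to 0.572 against 0.607 to 0.837 under IL-4.

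**Figure D5:**
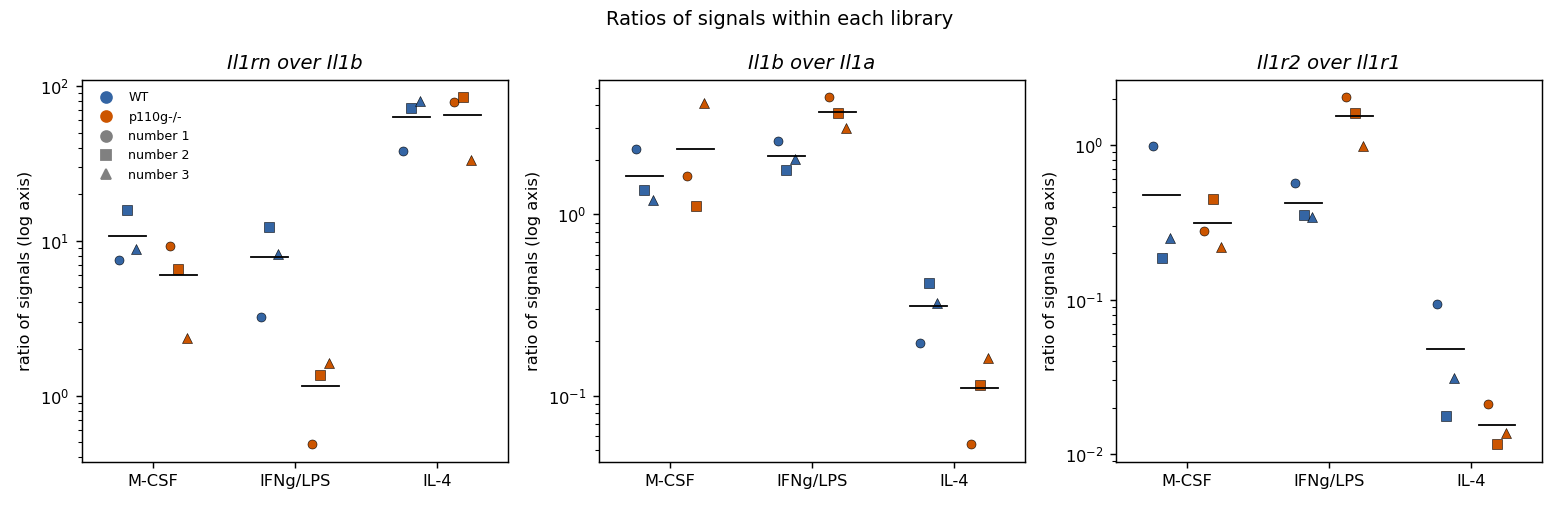
Ratio of the signals of 2 genes within each library (log axis) by stimulus, for Il1rn over Il1b, Il1b over Il1a and Il1r2 over Il1r1, with genotype as colour, library number as symbol and the bar at the mean. Under IFNg/LPS the genotypes do not overlap in any of the 3 ratios, which reuse the members' values and have no share over other gene pairs beside them.

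Levels can be compared between genes only per length of exon, here the union of exons in GENCODE M21. In WT IFNg/LPS libraries the order of means per kb was Il1rn (102272 ± 7952), Il1b (35819 ± 27771), Il1a (10908 ± 6505) and Il18bp (9032 ± 599), with Il1r2, Il1rap and Il1r1 below 141 in every library. Between libraries the ranges of Il1b (16952 to 67708) and Il1a (6613 to 18392) overlapped. Within each of these libraries Il1b had 1.76 to 2.53 times the signal of Il1a, with 1.356 kb of exon against 1.974. The range of Il18bp (8434 to 9632) lay within that of Il1a, and the ranges of the 3 receptors overlapped. Overlap of ranges does not compare the genes within a library. In p110g-/- IFNg/LPS libraries Il1b came first (109244 ± 71879), ahead of Il1rn (49571 ± 9036), and the lowest Il1b library, 62708, was above the highest Il1rn library, 59737. Under IL-4 Il18bp came first in p110g-/- libraries (182 ± 23.9), above every value of Il1rn, whereas in WT libraries Il1rn (382 ± 128) and Il18bp (172 ± 77.2) overlapped. Il1b had the lowest mean in both genotypes (12.1 ± 0.829 and 3.20 ± 1.25), but its values overlapped those of Il1r2 (12.8 ± 12.3 and 6.18 ± 3.38).

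The genes whose log2 signal was most like that of each member over the 18 libraries were named by Pearson's r among tested genes with a mean signal of at least 50. These r values mostly follow the stimulus groups that the libraries share. Il1a was most like Gm14023 (r = 0.998), Grina (0.996) and H2-Q8 (0.995). Gm14023 is a long noncoding RNA gene that overlaps Il1a, and with the handling of strand not given in the sources used here, their reads cannot be told apart. Il1b was most like Fpr2, a receptor of formylated peptides (0.992), Dyrk2 and Msi2 (0.990 each), Il1rn like Fam214b (0.994), Zswim4 (0.991) and Ccdc55 (0.990), and Il18bp like H2-Q4 (0.997), H2-T18 and Casp4 (0.996 each). The H2 genes belong to the MHC class I family, whose near-identical copies make their counts uncertain. Il1r1 had less close matches in Ints9 (0.945), 9830132P13Rik (0.937) and Mllt3 (0.934), Il1r2 in Zcchc9 (0.954), Runx3 (0.952) and Ppp1r15a (0.945), and Il1rap in Tbc1d1 (0.964), Stard5 (0.963) and LOC100862515 (0.960).

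Among the members Il1a and Il1b had r = 0.969 over the 18 libraries and 0.656 for deviations from the group means. Il1a and Il1rn had r = 0.970 over the libraries and -0.304 for the deviations. Il1rap overlaps the noncoding gene Gm20319, and Il1b and Il1r2 overlap Il1bos and Gm16894, which are not rows of the table.

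The rest of the IL-1 family was read from a list of 18 names, of which 9 were in the table and tested. Under IFNg/LPS 4 of the 9 were lower and none higher in p110g-/- macrophages (median -0.52, against 0.00 over all tested genes, of which 7.79% were called lower). Il33, an alarmin cytokine, had 26.5 ± 8.52 in p110g-/- and 86.7 ± 16.5 in WT libraries (log2 fold change -1.70, adjusted p = 0.0071). Il18rap, a chain of the IL-18 receptor, was at 31.4 ± 7.60 against 68.0 ± 15.4 (-1.09, adjusted p = 0.016). Il18, the cytokine that IL18BP binds, was at 620 ± 137 against 1009 ± 17.2 (-0.73, adjusted p = 0.023). Without the library labelled p110g-/- number 1, 3 of the 9 were lower, the same 3 named here. No gene of the list was called between genotypes in M-CSF or IL-4.

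For the lists of related genes, the responses to a stimulus are to be read against the shares over all tested genes, which under IFNg/LPS were 36.3% raised and 37.5% lowered in WT and 36.2% and 36.8% in p110g-/- libraries. Under IL-4 they were 22.9% raised and 21.1% lowered in WT and 22.7% and 21.2% in p110g-/- libraries. In the IL-1 family IFNg/LPS raised 5 of 9 in each, and lowered 2 in WT and 1 in p110g-/- libraries. Il1f9, an IL-36 cytokine, went from 130 ± 26.0 to 1885 ± 237 in WT and from 153 ± 13.7 to 1315 ± 179 in p110g-/- libraries. Il33 and Il1f6 were at 0 in all 6 M-CSF libraries and at 86.7 ± 16.5 and 106 ± 33.1 in WT IFNg/LPS libraries. IL-4 raised the receptors Il1rl2 (656 ± 43.3 against 73.8 ± 0.586 in WT, 461 ± 104 against 105 ± 9.90 in p110g-/- libraries) and Il1rl1, the receptor of IL-33 (1873 ± 1133 against 149 ± 57.0, and 1514 ± 683 against 112 ± 20.8). The list had 3 higher and 2 lower in WT and 4 higher and 2 lower in p110g-/- libraries under IL-4.

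Of 26 genes of the signalling chain behind IL1R1, 1 was higher and 1 lower in p110g-/- macrophages under IFNg/LPS, where 14.7% of all tested genes were called, and none was called in M-CSF or IL-4. Myd88, the adaptor of the receptor, had 8267 ± 1066 in p110g-/- and 11285 ± 639 in WT libraries (log2 fold change -0.46, adjusted p = 0.014). Ikbkg, a subunit of the IkappaB kinase, had 7407 ± 134 and 6222 ± 560 (0.26, adjusted p = 0.047). Without the library labelled p110g-/- number 1 Myd88 was the only gene of the chain called, and with the library number as a block 2 others, Ikbkb and Nfkb1, were called higher and Ikbkg was not. IFNg/LPS raised 17 and lowered 7 of the chain in each genotype, while 73.8% of all tested genes were called in WT and 73% in p110g-/- libraries. Peli1, a ubiquitin ligase, rose to 10168 ± 1083 from 1505 ± 15.5 in WT libraries, and its relative Peli2 fell to 245 ± 65.2 from 2011 ± 20.9. IL-4 raised 4 and lowered 13 in WT and raised 3 and lowered 12 in p110g-/- libraries, with Irak2 at 1577 ± 96.6 against 2870 ± 310 in WT.

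Of 19 genes for the processing and release of IL-1, 7 were lower and none higher in p110g-/- macrophages under IFNg/LPS (median -0.28), where 7.79% of all tested genes were lower, and none was called in M-CSF or IL-4. Casp1, which encodes the protease that cleaves IL-1 beta, had 32610 ± 4670 in p110g-/- and 43559 ± 2385 in WT libraries (log2 fold change -0.43, adjusted p = 0.0064). S100a13, a partner in the release of IL-1 alpha, was at 598 ± 87.9 against 859 ± 55.9 (-0.53, adjusted p = 0.0019). Nlrp1b, an inflammasome sensor, was at 342 ± 8.47 against 542 ± 67.1 (-0.66, adjusted p = 0.011). Without the library labelled p110g-/- number 1, 6 of the 19 were lower, these 3 included. IFNg/LPS raised 13 of the 19 in WT and 12 in p110g-/- libraries and lowered 6 in each, with the same 73.8% and 73% called over all tested genes. IL-4 lowered 7 in each genotype, among them Nlrp3, the sensor of the best known inflammasome (480 ± 198 against 2143 ± 135 in WT), and raised 4 in WT and 6 in p110g-/- libraries.

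Of 15 genes that IL-1 and LPS are both known to raise, 1 was lower and none higher in p110g-/- macrophages under IFNg/LPS, against 7.79% lower over all tested genes. That gene was Mmp13, a collagenase, at 5872 ± 1742 against 15771 ± 3933 (log2 fold change -1.44, adjusted p = 0.0016). Without the library labelled p110g-/- number 1, and with the library number as a block, Lcn2 was called lower too. Mmp13 was also lower in M-CSF (-1.09, adjusted p = 0.033), where it was the only gene of the list called, and under IL-4 (-1.46, adjusted p = 0.0037), where Icam1 was lower as well (-0.69, adjusted p = 0.026). IFNg/LPS raised 14 of the 15 in each genotype, with Ptgs2, the inducible cyclooxygenase, at 99416 ± 57833 in WT and 193748 ± 84266 in p110g-/- libraries, against 17.6 ± 3.76 and 36.8 ± 19.3 in M-CSF. IL-4 raised 3 and lowered 5 in WT and raised 3 and lowered 7 in p110g-/- libraries.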

How the data were processed

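RNA was sequenced in 18 libraries of bone marrow derived macrophages, and the authors deposited 1 table of normalised signal. Per the submitters' processing notes, CASAVA 1.8.2, Bowtie2, DESeq and the genome build mm9 were used; the counting method is not given in the sources used here. At least 99.964% of the deposited signal values of each library were whole multiples of 1 step (tolerance 0.1), so whole reads could be recovered (40.1 to 69.6 M per library); a count of 0 allows up to 3 reads, a signal of 2.152 to 4.738. Values were analysed as log2(signal + 1) with limma 3.58.1 (R 4.3.3), as 1 model of 6 group means on all 18 libraries, with trended and robust moderation of the variance and 12 residual degrees of freedom. Of 16474 genes, 15627 reached a signal of 10 in 3 or more libraries and were tested, with Benjamini-Hochberg adjustment per comparison at 0.05. The model was run on simulated counts that gave every gene the same dispersion and held no effect of the library number. That run does not cover genes that vary as widely as Il1b and Il1r2 did. Alternatives were edgeR 4.0.16 and DESeq2 1.42.0 on recovered reads, a pseudocount of 5, no filter, no trend or robust moderation, the compared groups alone, numbers 2 and 3 alone, a block for the number (10 residual degrees of freedom), and each library left out.

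The labels number the libraries of each group 1 to 3 without saying what a number marks. The main fit held no block and paired no libraries in any comparison. Pairing enters only through the alternative fit with the number as a block. Numbers were taken as pairs where all 3 same-numbered correlations of deviations from the group means were over 0.1. So it was between genotypes under IFNg/LPS (0.546, 0.34 and 0.256) and, in WT, between M-CSF and IFNg/LPS (0.256, 0.191 and 0.162). It was so too between M-CSF and IL-4, with 0.458, 0.347 and 0.179 for WT libraries and 0.397, 0.248 and 0.187 for p110g-/- libraries. The text names all 7 members, Pik3cg, the 3 most similar genes of each member by Pearson's r (mean signal of at least 50), and up to 3 genes with the smallest p among those called from each list. Genes outside that rule (H60a, Plekhg1, Il1rap's and others' overlapping genes, Lcn2, Ikbkb, Nfkb1 and single markers) were chosen after their values were seen. The members and lists were chosen with earlier results of these data known.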

Additional observations from a re-analysis of the deposited data

How the results depend on the processing

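Every call of the IFNg/LPS responses (7 of 7 members in each genotype) and that of Il1rn in the genotype effect under IL-4 was made under every alternative run. Genes called in the genotype effect in M-CSF numbered 365, against 679 with DESeq2, 688 with numbers 2 and 3 alone and 239 to 336 with 1 library left out. In IFNg/LPS they numbered 2303, against 708 with the compared groups alone, 4166 with numbers 2 and 3 alone and 1466 (without p110g-/- IFNg/LPS number 2) to 2728 with 1 library left out. Members called there numbered 2, against 1 with the compared groups alone and 0 (without p110g-/- IFNg/LPS number 2) to 3 (without WT IFNg/LPS number 1) with 1 library left out. In IL-4 genes called numbered 520, against 921 with DESeq2, 2285 with numbers 2 and 3 alone and 239 to 727 with 1 library left out, and members called numbered 1, against 2 with the compared groups alone. Members called in the IL-4 response numbered 3 in WT, against 5 with numbers 2 and 3 alone, and 5 in p110g-/-, against 3 to 5 with 1 library left out. Genes called in the IFNg/LPS interaction numbered 381, against 869 with DESeq2, 211 with the compared groups alone, 1708 with numbers 2 and 3 alone and 183 to 633 with 1 library left out. In the IL-4 interaction they numbered 0, against 7 with a pseudocount of 5, 64 with DESeq2 (1 member), 2 with no trend or robust moderation, 385 with numbers 2 and 3 alone and 0 to 89 with 1 library left out. The causes were not tested.

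With the replicate number as a block, 555 genes were called in the genotype effect in M-CSF, 2974 in IFNg/LPS (4 members) and 763 in IL-4, and 716 and 8 in the IFNg/LPS and IL-4 interactions. The numbers were not taken as pairs in M-CSF, in IL-4 or in the IFNg/LPS response of p110g-/-. The block changed no other call of a member.

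Directions turned only for differences that were not called. With numbers 2 and 3 alone, the log2 fold changes were 0.028 for Il1r2 and 0.14 for Il18bp (genotype, M-CSF), -0.001 for Il1rap (genotype, IL-4), 0.13 for Il1rn (IL-4 response, WT), -0.24 for Pik3cg (IFNg/LPS response, p110g-/-), -0.29 for Il18bp (IFNg/LPS interaction) and -0.15 for Il1rap (IL-4 interaction). With 1 library left out, the genotype effect in M-CSF ranged from -0.146 to 0.86 for Il1b, from -0.57 to 0.161 for Il1r1, from -1.053 to 0.36 for Il1r2, from -0.013 to 0.164 for Il1rap and from -0.423 to 0.063 for Il18bp. It ranged from -0.111 to 1.066 for Il1r2 and from -0.218 to 0.136 for Il1rap in IFNg/LPS, and from -1.223 to 0.038 for Il1r2 and from -0.086 to 0.512 for Il18bp in IL-4. The IL-4 response of Il1r2 in WT ranged from -0.782 to 0.699, and the IFNg/LPS response of Pik3cg in p110g-/- from -0.213 to 0.48. Interaction values ranged from -0.267 to 0.086 for Il1rap and from -0.255 to 0.231 for Il18bp under IFNg/LPS, and from -1.037 to 0.444 for Il1r2 and from -0.098 to 0.079 for Il1rap under IL-4. With 4 to 8 reads, Il1b in p110g-/- IL-4 libraries is limited by depth.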
